A study of Mus musculus with 8 samples.

Results

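The peptide hormone genes of the pancreatic islet were followed across all 8 libraries of the series: Ins1 and Ins2 (insulin), Iapp (amylin), Gcg (glucagon), Sst (somatostatin), Ppy (pancreatic polypeptide), Pyy (peptide YY) and Ghrl (ghrelin). They were chosen by name, and all 8 were among the 16333 genes of the deposited tables. RNA was sequenced from isolated mouse islets of the strain Agouti/C57BL6. In the knockout (KO) mice, tamoxifen given in adult life had removed Nfatc2 from cells that express insulin, so other islet cells keep the gene. The wild-type (WT) mice had also received tamoxifen, without a resulting deletion. After a night in 5.5 mM glucose, islets of each genotype were either left untreated for 2 h or kept for 2 h in 11 mM glucose with a mix of the cytokines IFNγ (50 ng/mL), IL1β (5 ng/mL) and TNFα (10 ng/mL). The glucose level of the untreated islets during those 2 h is not given in the labels. Cytokines came together with 11 mM glucose, so an effect of the cytokines cannot be told apart from one of glucose. Each of the 4 groups held 2 libraries, 1 from each of 2 mice per genotype, and every mouse gave an untreated and a cytokine library. The age of the mice, and whether 1 library held islets of several animals, are not given in the labels.

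An islet holds several endocrine cell types, each known by the hormone it secretes. Beta cells secrete insulin together with amylin, alpha cells glucagon, delta cells somatostatin, PP cells pancreatic polypeptide, and rare epsilon cells ghrelin. Each hormone is made as a longer precursor that is cut by prohormone convertases on its way into secretory granules. Mice carry a pair of insulin genes, Ins1 and Ins2. NFATc2, a transcription factor set free by the calcium-dependent phosphatase calcineurin, is known in beta cells as a link between calcium signals and gene activity.

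The deposited tables hold group means and comparisons of the authors. Reads per library were recovered from the digits of those means, as described with the processing, and totalled 18262831 to 33071290 reads per library. Values below are normalized counts, that is reads divided by a size factor per library, unless another scale is named. In every group 1 library held reads of Y-linked genes and the other held few or none, so the mice of a group are called male and female here. With 1 mouse of each sex per genotype, sex and the individual mouse cannot be told apart. Nfatc2, the targeted gene, was at 842 and 1167 in the untreated KO male and female and at 899 and 987 with cytokines. In WT it was at 1270 and 1557 untreated and at 1144 and 1646 with cytokines. Within each treatment both KO libraries lay below both WT libraries. The KO-over-WT log2 fold change in the authors' deposited table was -0.49 untreated (FDR 0.903) and -0.56 with cytokines (FDR 0.474).

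Together the hormone genes took 8.09% to 9.54% of all recovered reads of a library, with Ins1 and Ins2 making up 5.72% to 6.93%. To compare genes with each other, reads were divided by transcript length and library total (RPKM), using the median length of a gene's coding transcripts in GENCODE M21. On that scale the order of the median levels over the 8 libraries was Ins2 (85950 RPKM), Ins1 (22038), Iapp (14392), Gcg (9892), Ppy (1552), Sst (1226), Pyy (975.8) and Ghrl (4.25). The ranges of Ins2 (72752 to 92726), Ins1 (21112 to 24650) and Iapp (13965 to 18447) did not overlap. Gcg spanned 4715 to 14335 and met the range of Iapp. Ppy (1120 to 2689), Sst (941 to 2182) and Pyy (658.2 to 1614) overlapped, so their order does not hold beyond their spread. Ghrl stayed far below all of them, at 2.14 to 7.76 RPKM from 30 to 60 reads per library. With the length of all exons joined, the order was the same, but Ins2, which has 9 coding transcripts of unequal length, came out at 31314 RPKM. The gap between Ins2 and Ins1 therefore depends on the length assumed.

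In the authors' deposited tables, called means an FDR below 0.05 over all genes. In the cytokine response of KO islets 1 of the 8 hormone genes was called, Ppy, against 0.0429% of all genes. In WT islets 0 were called (0.0122% of all genes), and Ins2 had an unadjusted p below 0.05. Between KO and WT, 0 were called untreated (0.41% of all genes), where Ppy and Ghrl had an unadjusted p below 0.05. With cytokines 0 were called (0.998% of all genes), and 0 had an unadjusted p below 0.05. A limma fit on the recovered reads with neither a block for the mouse nor a covariate called 0 of the 8 in each of these comparisons. Over all genes that fit called 0 in either cytokine response and 2 in each genotype comparison. Its count of 0 therefore does not set the hormone genes apart. The untreated and treated libraries serve in several comparisons, so these results share samples. The median log2 fold change of the hormone genes was 0.02 in the KO response and -0.159 in the WT response, with 0.000577 and 0.00283 over all genes. For KO over WT it was -0.107 untreated and -0.068 with cytokines, with -0.00403 and -0.00325 over all genes.

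**Figure D1:**
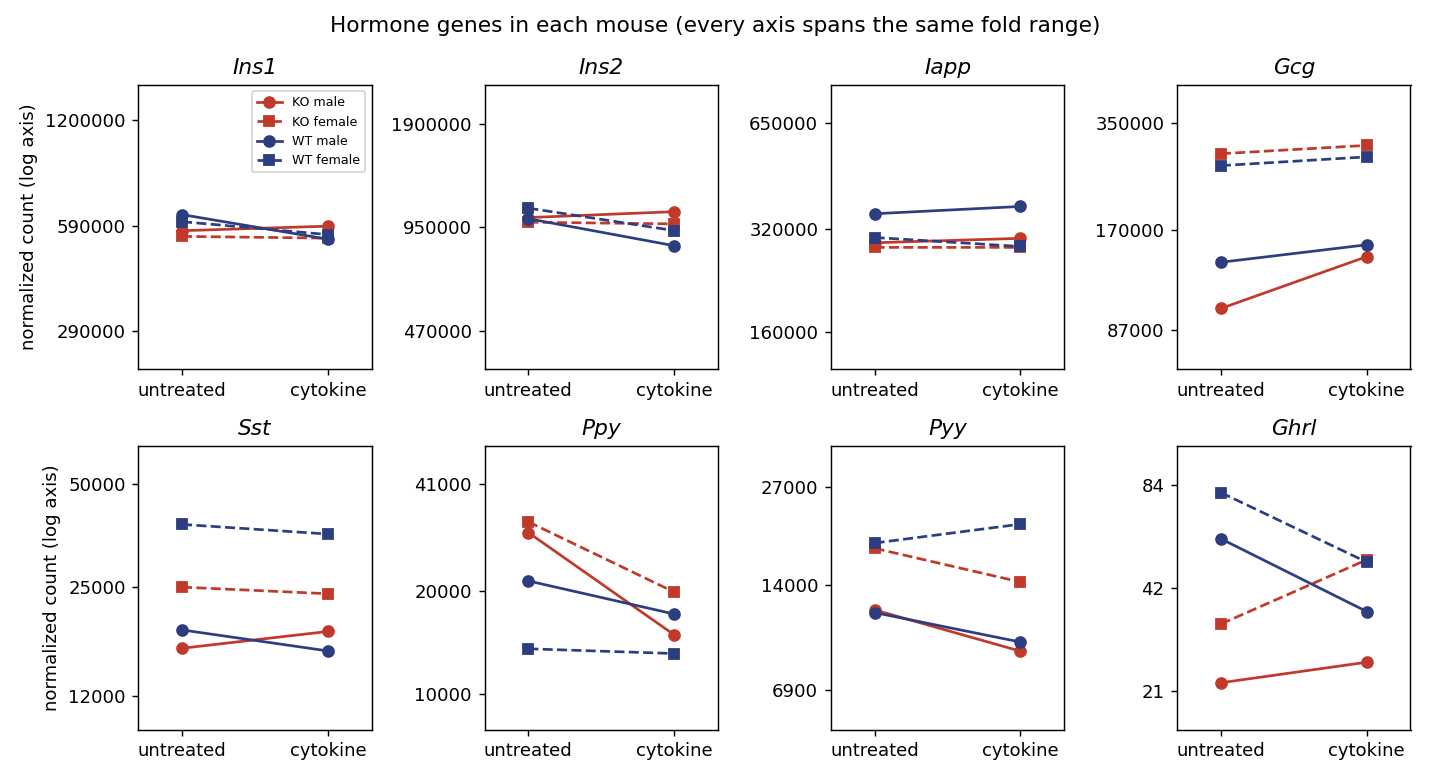
Normalized count (log axis) of each hormone gene, untreated and with cytokines, in the KO male, KO female, WT male and WT female mouse, with a line joining the libraries of 1 mouse and the same fold range on every axis. Ppy was lower with cytokines in all 4 mice, from 29544 to 14842 in the KO male and from 13514 to 13090 in the WT female, while the lines of Gcg stay apart by mouse.

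Insulin comes from Ins1 (ENSMUSG00000035804, chromosome 19, 52264297 to 52265476, plus strand, GRCm38) and Ins2 (ENSMUSG00000000215, chromosome 7, 142678656 to 142743381, minus strand). Their coding sequences are 327 and 333 bases long and are identical at 91% of 333 aligned positions. The first 150 coding bases are shown, read from GENCODE M21 transcripts, because they show how closely the genes resemble each other. This stretch encodes the signal peptide and most of the B chain. Capitals mark the 14 positions at which the genes differ.
Ins1: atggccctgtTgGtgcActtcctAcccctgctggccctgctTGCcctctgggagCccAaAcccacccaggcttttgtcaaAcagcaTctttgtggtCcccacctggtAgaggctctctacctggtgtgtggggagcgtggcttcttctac
Ins2: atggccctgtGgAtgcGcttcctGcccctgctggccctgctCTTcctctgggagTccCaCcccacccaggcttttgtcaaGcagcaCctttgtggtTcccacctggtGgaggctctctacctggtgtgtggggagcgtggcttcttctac
Of all 50-base windows of the Ins1 transcript, 0.691% also occur in an Ins2 transcript, and of all 75-base windows 0%. No label gives the read length or how reads that fit both genes were counted, so a small part of the split between Ins1 and Ins2 is uncertain.

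Over the 8 libraries Ins1 and Ins2 spanned the narrowest fold ranges of the hormone genes. Between treatments within a mouse Iapp differed less, with a median absolute log2 difference of 0.057 against 0.085 for Ins1 and 0.138 for Ins2. Ins1 was at 570616 and 549192 in the untreated KO male and female and at 588354 and 542671 with cytokines. The WT mice were at 635832 and 606349 untreated and at 538776 and 555830 with cytokines. Both WT mice were thus lower with cytokines and their groups did not overlap, while the KO groups overlapped. The authors' deposited log2 fold change of Ins1 was -0.18 (SE 0.099, FDR 1.00) in WT and 0.01 (SE 0.099, FDR 1.00) in KO.

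Ins2 followed the same course. It was at 1009760 and 979026 in the untreated KO male and female and at 1050925 and 967819 with cytokines. WT islets held 1002248 and 1076066 untreated and 835660 and 925210 with cytokines. The WT groups did not overlap and the KO groups did. In the authors' deposited tables the WT log2 fold change was -0.24 (SE 0.0884, p 0.00662, FDR 1.00) and that of KO 0.02 (SE 0.0884, FDR 1.00). The difference of these responses, KO minus WT, was 0.26 for Ins2 (SE 0.125, p 0.0373) and 0.20 for Ins1 (SE 0.14, p 0.159), and adjusted over all genes neither passed (adjusted p 1.00 for both). Over all genes 0 differences were called (0% of 16333), 36 had an unadjusted p below 0.05, and limma called 0 as well. Ins2 and Ppy were the hormone genes among those 36.

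Within a library, the ratio of Ins2 to Ins1 reads does not depend on scaling. It was 1.77 and 1.78 in the untreated KO male and female and 1.79 and 1.78 with cytokines. In WT it was 1.58 and 1.78 untreated and 1.55 and 1.67 with cytokines. The KO libraries lay close together, and the WT male was lowest in both treatments. With cytokines the KO and WT groups did not overlap, but with 2 libraries against 2 the smallest two-sided p of an exact permutation test is 0.333, so no ratio can pass a threshold.

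Iapp (ENSMUSG00000041681, chromosome 6, 142298423 to 142303961, plus strand) encodes amylin, which beta cells release with insulin. It was at 291283 and 282374 in the untreated KO male and female and at 300133 and 282377 with cytokines. In WT islets the gene was at 354099 and 301789 untreated and at 371912 and 284096 with cytokines. The WT male was the highest in both treatments, and the 4 deposited log2 fold changes lay between -0.19 and 0.02 with SE 0.156. Relative to the sum of Ins1 and Ins2, Iapp reads were at 18.3% to 18.7% in all 4 KO libraries. In WT the male was at 21.6% untreated and 27.1% with cytokines, and the female at 17.9% and 19.2%.

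**Figure D2:**
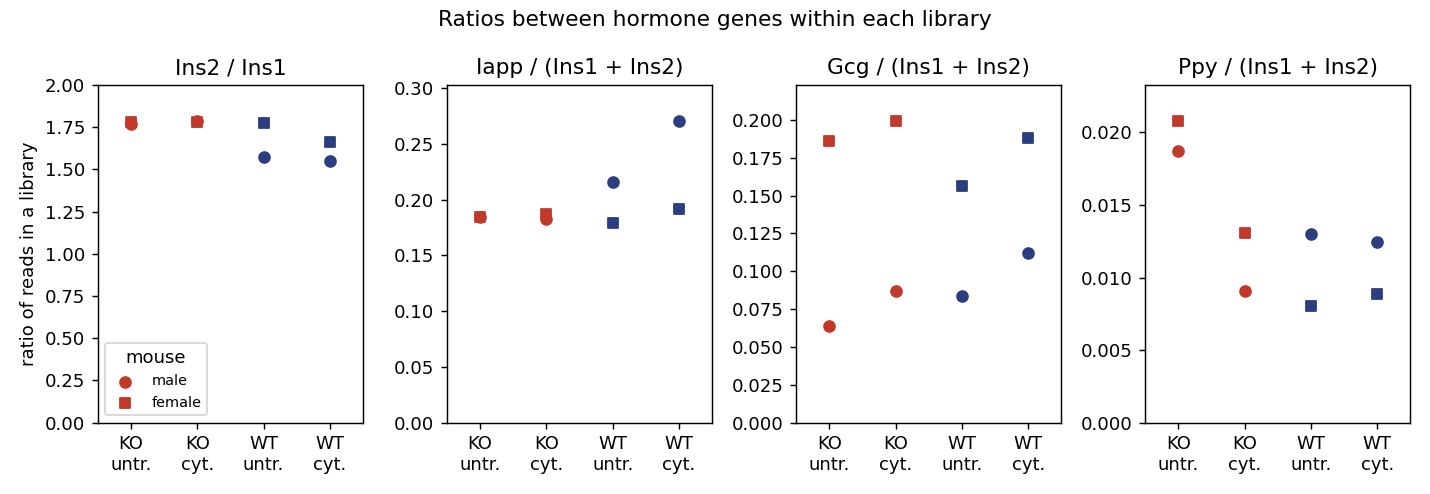
Ratio of reads within each library for Ins2 to Ins1, and for Iapp, Gcg and Ppy to the sum of Ins1 and Ins2, by group, with a circle for the male and a square for the female mouse and every axis starting at 0. The ratio of Ppy to insulin was 0.0187 and 0.0208 in untreated KO islets, above the 0.00803 to 0.0131 of the other 6 libraries.

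Gcg (ENSMUSG00000000394, chromosome 2, 62474530 to 62483650, minus strand) encodes glucagon, which raises blood glucose. It was at 100419 in the untreated KO male and 284522 in the KO female, and at 142337 and 300907 with cytokines. In WT it was at 137035 and 262608 untreated and at 154146 and 278530 with cytokines. The female libraries (262608 to 300907) all lay above the male ones (100419 to 154146), in both genotypes and treatments. How many of all genes separate by sex in this way was not counted, here or for the hormones below. Within a mouse the log2 difference between treatments was positive in 4 of 4, from 0.081 in the KO female to 0.503 in the KO male. The deposited log2 fold changes were 0.22 in KO and 0.11 in WT, each with SE 0.565, and the genotype values -0.05 untreated and 0.03 with cytokines had the same SE. That SE exceeds every difference seen within a mouse. With the mouse as a block, which takes up the difference between male and female, limma gave adjusted p 0.471 for KO and 0.659 for WT. In bulk RNA, fewer cells of a type and less RNA per cell cannot be told apart, for Gcg as for the hormones below.

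The other genes of the alpha-cell list differed between mice in the same direction as Gcg. Of 14 measured genes other than Gcg, 14 were higher in the female in both KO groups, 12 in untreated WT and 11 in WT with cytokines, with median log2 differences of 0.708 to 0.835. Over all genes the medians were -0.006 to 0.013. Ttr, a carrier of thyroid hormone and retinol with high expression in alpha cells, was at 3463 and 10226 in the untreated KO male and female and at 5057 and 9764 in untreated WT. Of all genes averaging at least 100 normalized counts, Ttr was also the most like Gcg over the 8 libraries (Pearson r 0.996), followed by Avpr1b (0.990), a vasopressin receptor, and Edn3 (0.989), an endothelin. These r values describe 8 libraries from 4 mice that share the gap between mice. Of the 14 alpha-cell genes, 0 were called in any of the 4 comparisons of the authors.

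Sst (ENSMUSG00000004366, chromosome 16, 23889573 to 23890958, minus strand) encodes somatostatin, which restrains insulin and glucagon release. It was at 16600 and 25045 in the untreated KO male and female and at 18589 and 23960 with cytokines. The WT mice were at 18779 and 38200 untreated and at 16303 and 35801 with cytokines. Again every female library (23960 to 38200) lay above every male one (16303 to 18779), and within a mouse the treatments differed by -0.204 to 0.163 on the log2 scale. The deposited log2 fold changes ran from -0.45 to 0.02 with SE 0.511. The genes most like Sst over the 8 libraries were Abcc8 (r 0.986), a subunit of the ATP-sensitive potassium channel, Sel1l3 (0.985) and Cotl1 (0.983). Of 9 measured genes of the delta-cell list other than Sst, 0 were called in any comparison, and 5 to 8 were higher in the female, depending on the group.

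Ppy (ENSMUSG00000017316) and Pyy (ENSMUSG00000017311) are related genes that lie next to each other on the minus strand of chromosome 11, at 102099930 to 102101319 and 102106676 to 102107832, with 5356 bases between them. Ppy encodes the hormone of PP cells, and Pyy a relative that is also known from gut endocrine cells. Their coding sequences are 55.2% identical over 317 aligned positions and share 0 windows of 30 bases between the transcripts compared, so reads of either can be assigned.

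Ppy was the only hormone gene called in the cytokine response of KO islets. It was at 29544 in the untreated KO male and 31760 in the KO female, and at 14842 and 19795 with cytokines. WT islets held 21338 and 13514 untreated and 17074 and 13090 with cytokines. The 2 untreated KO libraries were the highest of all 8, and both KO libraries with cytokines lay within the range of the WT libraries. Within a mouse the log2 difference was -0.993 in the KO male, -0.682 in the KO female, -0.322 in the WT male and -0.046 in the WT female, so all 4 were lower with cytokines.

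In the authors' deposited table Ppy fell to 0.557 of its untreated level in KO islets (log2 fold change -0.84, SE 0.158, FDR 0.000476), the third smallest p of all 16333 genes there. For WT the table gave -0.19 (SE 0.158, FDR 1.00). The call held in limma with the mouse as a block (log2 difference -0.84, adjusted p 0.0146), but not without a block (adjusted p 1.00), nor with the sex of the mouse as covariate (adjusted p 0.886). Over its 11 alternatives the adjusted p ran from 0.00036 to 1.00 and the log2 difference from -0.99 without the KO female to -0.68 without the KO male. The difference of the responses, KO minus WT, was -0.65 (SE 0.223, p 0.00339), the fourth smallest p of all genes, with an adjusted p of 1.00. Its sign was the same under all 10 alternatives. Leaving out a mouse could not change that sign, since both KO mice fell more than both WT mice. With that adjusted p, the responses of KO and WT are not shown to differ.

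Untreated, Ppy was higher in KO than in WT in every pairing of libraries, with a deposited log2 fold change of 0.81 (SE 0.236, p 0.000565, FDR 0.0942), which did not pass. With cytokines the groups overlapped and the value was 0.20 (SE 0.236, FDR 1.00). Relative to the sum of Ins1 and Ins2, Ppy reads were at 1.87% and 2.08% in untreated KO libraries and at 0.905% and 1.31% with cytokines. In WT they were at 1.3% and 0.803% untreated and at 1.24% and 0.884% with cytokines. On this scale both KO mice were lower with cytokines, and the WT mice went in opposite directions.

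Ppy was called in the cytokine response of islets with a deletion of Nfatc2, which was limited to cells that express insulin. It was not called between KO and WT, so its call is not shown to depend on Nfatc2. As a description, the 250 bases before the start of Ppy were searched for GGAAA, the core of NFAT sites, on both strands. The neighbour Pyy, which was not called, was searched for comparison. Sequences are from RefSeq (GRCm38.p6), 5′ to 3′ on the minus strand, and capitals mark GGAAA or its reverse complement.
Ppy, chr11:102101320-102101569: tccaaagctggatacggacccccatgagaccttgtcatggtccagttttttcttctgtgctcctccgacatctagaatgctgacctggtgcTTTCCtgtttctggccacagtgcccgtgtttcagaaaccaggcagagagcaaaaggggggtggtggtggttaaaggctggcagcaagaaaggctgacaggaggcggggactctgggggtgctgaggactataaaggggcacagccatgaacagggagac
Pyy, chr11:102107833-102108082: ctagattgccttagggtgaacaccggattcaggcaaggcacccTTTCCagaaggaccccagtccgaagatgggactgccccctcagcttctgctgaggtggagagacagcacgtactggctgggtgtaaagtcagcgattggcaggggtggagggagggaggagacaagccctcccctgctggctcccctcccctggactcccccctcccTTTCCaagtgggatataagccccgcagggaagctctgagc
Ppy held 1 match, 154 bases before the start, and this Pyy window 2. Another Pyy window, chr11:102107777-102108026, which overlaps the one shown, held 1. At least 1 match occurs in 55.6% of all 32851 promoter windows of that length, and at least 2 in 21.4%. TAAT, the core of homeodomain sites, was searched as well on both strands. It occurs in none of these Ppy and Pyy windows and in 54.9% of all windows. Among the hormone genes, 7 had windows in the table, 11 windows in all, of which 7 held GGAAA. A match is a description of letters and was not tested as a binding site.

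Pyy itself followed the mouse. It was at 11824 and 17903 in the untreated KO male and female and at 8957 and 14267 with cytokines. In WT islets the gene was at 11614 and 18547 untreated and at 9525 and 21061 with cytokines. All female libraries (14267 to 21061) lay above all male ones (8957 to 11824), as for Gcg and Sst and unlike Ppy. Gaps by sex were not limited to hormone genes. Over 12420 genes, female-minus-male differences correlated between KO and WT at 0.625 untreated and 0.571 with cytokines. In 3 of the 4 mice Pyy was lower with cytokines, by log2 -0.286 to -0.401, and the WT female was higher by 0.183. The deposited log2 fold change was -0.35 (SE 0.616) in KO and 0.01 (SE 0.616) in WT, and the genotype values were -0.02 untreated and -0.40 with cytokines (SE 0.549), with FDR 1.00 in each. In the same KO comparison the SE of Ppy was 0.158. The authors' cytokine model holds a 2-level block that pairs the KO male with the WT female. Such a block can take up gaps between mice that have opposite signs in KO and WT, as those of Ppy did. The gaps of Pyy had the same sign in both. In the untreated genotype comparison, fitted without that block, the SE of Ppy was 0.236. The part of the block in these SE values was not tested. The reads of Ppy per read of Pyy went from 2.5 to 1.66 in the KO male and from 1.77 to 1.39 in the KO female, and from 1.84 to 1.79 and 0.729 to 0.621 in the WT male and female.

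The genes most like Ppy over the 8 libraries were Txnip (r 0.942), an inhibitor of thioredoxin with a strong response to glucose, Lcmt1 (0.913), a methyltransferase of protein phosphatase 2A, and Gm15651 (0.912). Txnip was at 5160 and 5366 in the untreated KO male and female and at 3483 and 4302 with cytokines. In WT it was at 3999 and 3549 untreated and at 3277 and 2956 with cytokines, lower with cytokines in all 4 mice. Its deposited log2 fold changes, -0.44 in KO (FDR 0.236) and -0.28 in WT (FDR 1.00), were not called.

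Markers of other cells were read beside Ppy. Of the PP-cell and epsilon-cell list, 6 of 11 genes were measured besides the hormones, 0 were called in any comparison, and their summed level was 7730 to 8771 in untreated KO and 7480 to 8528 with cytokines. Tspan8, the member with the smallest p, was at 804.4 and 870.6 in untreated KO and at 684.4 and 658.4 with cytokines. Its deposited log2 fold change was -0.32 (FDR 1.00) in the KO response and 0.49 (FDR 0.222) for KO over WT untreated. Id4, the member with the next smallest p, went the other way in the KO response. It was at 324.6 and 265.3 in untreated KO and at 375.3 and 324.8 with cytokines. Of the 6 genes, 2 had a positive and 4 a negative deposited log2 fold change in the KO response. For KO over WT untreated, 3 were positive and 3 negative. The 14 of 15 acinar markers measured summed to 37291 to 86735 in untreated KO, 26167 to 148939 in KO with cytokines, 8458 to 70455 in untreated WT and 6003 to 32022 in WT with cytokines. Within KO the sum was lower with cytokines in the male and higher in the female, while Ppy was lower in both. The 4 of 6 lymphocyte markers measured summed to 70.98 to 186.9 in untreated KO and 259.8 to 364.1 with cytokines, and to 24.98 to 47.49 in the WT libraries. Of these 4, 3 were called higher in KO than in WT with cytokines (0.998% of all genes were called there), and 1 untreated (0.41% of all genes). The 8 stromal markers summed to 5128 to 9841 in untreated KO and 1551 to 1861 in untreated WT, and to 4615 to 13199 and 2059 to 10080 with cytokines. Of these 1 was called, Dcn, a collagen-binding proteoglycan, higher in untreated KO (log2 fold change 2.36, FDR 0.00605). The 7 of 8 macrophage markers measured summed to 2405 to 2409 in untreated KO and 1611 to 1647 in untreated WT, and to 2319 to 2632 and 1673 to 1943 with cytokines, and 0 were called. The 7 endothelial markers summed to 3980 to 4448 in untreated KO and 5331 to 6127 in untreated WT, and to 3320 to 4467 and 6288 to 7422 with cytokines. Of these, 3 were called lower in KO with cytokines, Kdr, Pecam1 and Cdh5, and 0 untreated. Lymphocyte, stromal, macrophage and endothelial sums thus differed between untreated KO and WT without overlap, as Ppy did. So did sums of beta-cell lists. The 8 beta markers, hormones included, summed to 1842295 to 1899373 in untreated KO and 2015263 to 2019672 in untreated WT. The 19 beta-cell genes summed to 275596 to 278197 in untreated KO and 248557 to 253746 in untreated WT. The sums of insulin gene transcription and of prohormone processing and granule genes did not overlap either. With 2 libraries against 2, a full separation has an exact two-sided permutation p of 0.333, so it cannot pass a threshold. How many of all genes separate untreated KO from WT in this way was not counted. The 6 duct markers summed to 13443 to 24249 in untreated KO and 13914 to 23186 in untreated WT, which overlap. In WT untreated 1 lymphocyte marker was at 0 in a library, and no marker of the other lists was at 0. The part of these cells in the Ppy result was not tested.

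**Figure D3:**
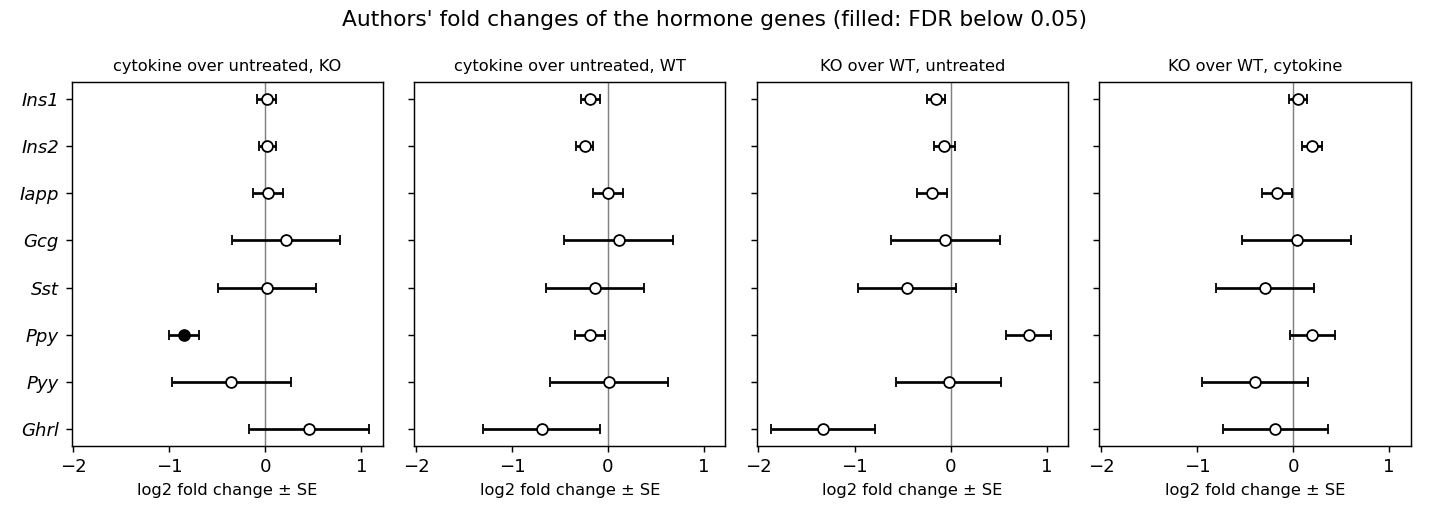
Log2 fold change of each hormone gene in the 4 deposited comparisons, with bars of 1 SE and filled points where the authors' FDR was below 0.05. Ppy in the KO response (-0.84) is the only filled point, and the bars of Gcg (SE 0.565), Sst (SE 0.511) and Pyy (SE 0.616 and 0.549) are wide in every panel.

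Ghrl (ENSMUSG00000064177, chromosome 6, 113716119 to 113719880, minus strand) encodes ghrelin, a hormone that stimulates appetite and is made by few cells of the adult islet. Its exons overlap those of Gm26982 and Gm44033 on the opposite strand. Whether reads keep strand is not given, so reads of these genes cannot be told apart from those of Ghrl. Ghrl was at 22.2 (exact 95% Poisson interval 14.97 to 31.7) in the untreated KO male and at 32.9 (23.2 to 45.4) in the KO female. With cytokines these mice were at 25.5 (17.2 to 36.4) and 50.8 (36.2 to 69.1). WT was at 58.5 (43.5 to 76.8) and 79.8 (60.9 to 102.7) untreated and at 35.8 (25.9 to 48.2) and 49.96 (36.6 to 66.6) with cytokines. These intervals cover counting error only. Untreated, the KO and WT libraries did not overlap, and the deposited log2 fold change was -1.33 (SE 0.54, p 0.0139, FDR 0.59), which did not pass. In limma with the sex of the mouse as covariate it did (-1.31, adjusted p 0.0459). That setting called 341 genes in this comparison, against 67 by the authors and 2 in limma with no block. It treats both libraries of a mouse as independent and was chosen after seeing the data. In the cytokine response both KO mice were higher and both WT mice lower, with deposited values of 0.45 (SE 0.625, FDR 1.00) and -0.69 (SE 0.61, FDR 1.00).

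**Figure D4:**
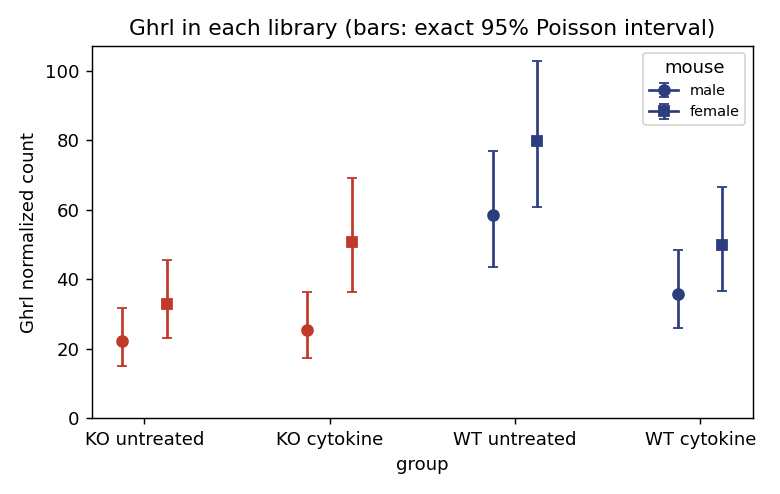
Normalized count of Ghrl in each library by group, with a circle for the male and a square for the female mouse and bars for the exact 95% Poisson interval of the reads. Untreated WT libraries (58.5 and 79.8) lie above untreated KO libraries (22.2 and 32.9), and with cytokines the groups overlap.

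Across the hormones, the gap between the mice of a group exceeded the gap between treatments for Gcg, Sst and Pyy. The median absolute log2 difference between female and male was 1.01 for Gcg, 0.808 for Sst and 0.674 for Pyy, and that between treatments within a mouse 0.128, 0.128 and 0.307. For Ppy the order was the opposite, with 0.399 between mice and 0.502 between treatments, and for Ghrl the values were 0.525 and 0.65. For Ins1 (0.062 and 0.085), Ins2 (0.111 and 0.138) and Iapp (0.16 and 0.057) both were small. The sums of acinar and of stromal markers also stood higher in the female library of each group, and that of duct markers in the male library. The 19 measured beta-cell genes had median differences of -0.022 to 0.101. Over the 8 libraries Pearson's r was 0.897 between Sst and Pyy, 0.803 between Gcg and Sst, 0.777 between Gcg and Pyy, and -0.085 between Ppy and Pyy, as a description of libraries that share mice.

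**Figure D5:**
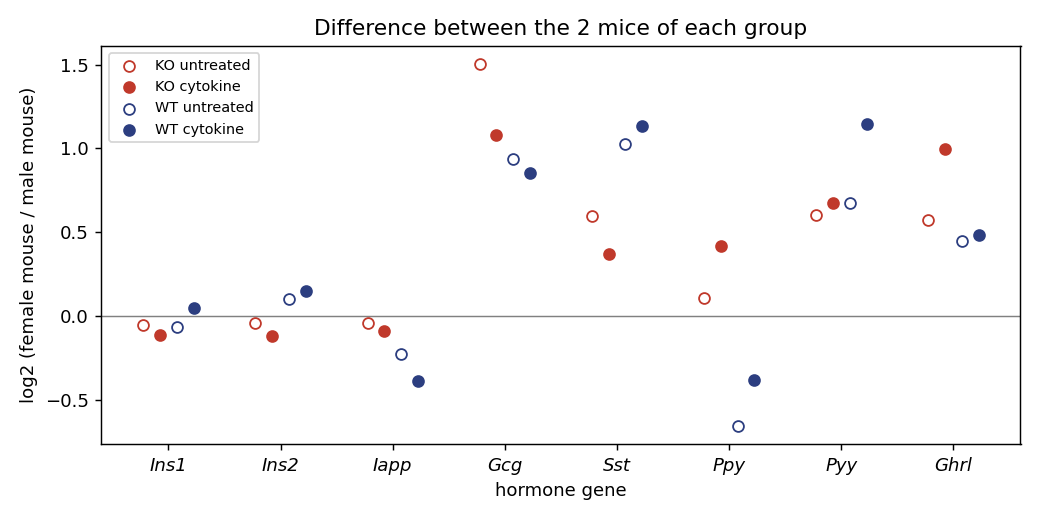
Log2 ratio of the female to the male mouse for each hormone gene in the 4 groups, with open points for untreated and filled points for cytokine libraries. Gcg (0.854 to 1.5), Sst (0.366 to 1.14) and Pyy (0.599 to 1.15) lie above 0 in every group, whereas Ppy lies above 0 in KO and below 0 in WT.

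Genes that make and process these hormones were read in the same deposited comparisons, in which 0.41% of all genes were called between KO and WT untreated and 0.998% with cytokines. Of 16 measured genes of insulin gene transcription, 0 were called in either cytokine response and 1, Insm1, was lower in KO in both genotype comparisons. Insm1, a zinc-finger factor of endocrine differentiation, was at 3027 and 3097 in untreated KO and at 4256 and 4747 in untreated WT. With cytokines it was at 3199 and 3120 in KO and at 4125 and 4532 in WT, so KO and WT did not overlap. Its deposited log2 fold change was -0.56 (SE 0.115, FDR 0.00091) untreated and -0.45 (SE 0.115, FDR 0.0126) with cytokines. Rfx6, a factor of islet development, had -0.34 (FDR 0.739) and -0.45 (FDR 0.128). The median of the list was -0.08 untreated and -0.125 with cytokines.

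Of 16 genes of prohormone processing and the granule, 1 was called, Vgf, a granule protein that was lower in untreated KO. It was at 2070 and 2369 in untreated KO and at 3176 and 3545 in untreated WT (log2 fold change -0.60, SE 0.151, FDR 0.0254). With cytokines it was at 2530 and 2586 in KO and at 2967 and 3649 in WT (log2 fold change -0.37, FDR 0.432). Pcsk1, the convertase that cuts proinsulin, was at 47777 and 35633 in untreated KO and at 31680 and 24330 in untreated WT, and its 0.57 (FDR 0.77) was not called. The list's median was -0.044 untreated.

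Of 11 measured receptors of these hormones, 0 were called in any comparison. The smallest p-values belonged to the somatostatin receptors Sstr2 and Sstr3, with a fold of 2.29 for Sstr2 in KO over WT untreated (FDR 0.457) and a log2 fold change of -0.28 for Sstr3 in the WT response (FDR 1.00). Of 8 measured genes of other peptides, 1 was called, Vip, a neuropeptide of nerve fibres and gut, which was higher in untreated KO (log2 fold change 2.76, SE 0.595, FDR 0.00218). It was at 174.5 and 697.9 in the untreated KO male and female and at 65.3 and 63.8 in untreated WT. With cytokines the KO female was at 186.5, below the 697.9 of its untreated library, so the size of that difference rests on 1 library. Of 19 measured beta-cell genes 0 were called. Among them Pcsk1 and G6pc2 had the smallest p-values, G6pc2 with 0.28 (FDR 0.798) for KO over WT with cytokines.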

How the data were processed

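Islets of 2 KO and 2 WT mice, untreated and with cytokines, gave 8 libraries in 4 groups of 2. Per the labels, RNA was taken up in Trizol and sequenced by standard Illumina protocols, and HISAT2, HTSeq, DESeq2 and the build GRCm38 are named in the submitters' processing notes without roles or versions. The authors deposited 4 tables of comparisons, in which Mut was taken for WT as the remaining genotype. Their signal columns are means of reads divided by a size factor per library, deposited per group and over all libraries. The deposited log2 fold change and its score (Wald) are output of the authors' model, and dividing the former by the latter gave the SE. The deposited p-values and FDR are those of the authors, and an FDR below 0.05 was a call. Genes with a mean below 23.2 over all libraries are not in the tables.

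Whole reads per library were recovered for 16329 of 16333 genes (99.98%): each deposited group mean is a sum of 2 whole numbers with fixed steps, settled by its digits for 16097 genes, with the overall mean for 194, and with the deposited log2 fold changes for 38, among them hormone genes of very high level. Among these 38, the search allowed a narrower gap between the mice of a group for Ins1 and Ins2 than for the others. Of 12 genes whose digits were blurred on purpose, 12 were recovered. A rebuilt version of the authors' model matched the deposited log2 fold changes of 200 settled genes within 5.5e-10. That model has no block in the genotype tables and, in the cytokine tables, a 2-level block that pairs the KO male with the WT female. The sum of 4 Y-linked genes was 8614 to 9879 in the libraries called male and at most 46.94 in those called female.

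The untreated and treated libraries of a mouse are paired by the labels: female-minus-male differences over 12420 genes correlated at 0.806 in KO and 0.829 in WT between treatments, and by sex at 0.625 and 0.571 between genotypes. The planned count models on the recovered reads were left out, since such models are kept here for columns deposited as counts. In their place limma 3.58.1 in R 4.3.3 on log2(normalized count + 1) was used, tested on simulated data first, and chosen after seeing the data. Interactions were tested as the difference of the deposited log2 fold changes divided by its SE, the root of the summed squares, two-sided, with Benjamini-Hochberg adjustment. Other values were computed in Python 3.11.15 with scipy 1.17.1. The members, lists and tests were chosen with earlier results of these data known. Named genes are the 8 hormones, Nfatc2, the 3 genes most like each of Ins2, Gcg, Sst and Ppy (mean of at least 100), and from each list the called members and the 2 with the smallest p.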

Additional observations from a re-analysis of the deposited data

Results flagged for a closer look

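In the cytokine response of Ghrl, both KO mice moved up (log2 0.2 in the male and 0.624 in the female) and both WT mice down (-0.706 and -0.675). The difference of the deposited log2 fold changes, KO minus WT, was 1.14 (SE 0.873, p 0.191, adjusted p 1.00), so it did not pass a test. It rests on 30 to 60 reads per library.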

How the results depend on the processing

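The planned count models on the recovered reads were left out, since such models are kept here for columns deposited as counts. They could have been fitted, and what they would call is not known. Fits with limma on the same reads took their place, chosen after seeing the data. Of 412 values of hormone genes under the alternatives, 364 kept their direction and side of the threshold and 38 changed sign. Another 9 lost a call, all of them Ppy in the KO response, and 1 gained a call. Much of the agreement was fixed in advance. A value that was not called keeps its side where a setting calls almost no gene. Fits that differ only in block or covariate share the log2 difference. Leaving out a mouse of 1 genotype leaves the response of the other genotype unchanged. None of the 38 belonged to a value that had been called. Depth limits Ghrl, which has no value when only genes with a mean of at least 100 are adjusted. That planned setting called 1 gene in the WT response, 84 with cytokines and 38 untreated between genotypes, against 2, 163 and 67.

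Counts of called genes moved with the pairing. With the mouse as a replicate block limma called 20 genes in the KO response and 25 in the WT response, against 7 and 2 by the authors. With no replicate block, with the 2-level replicate block of the authors, with the sex covariate and with either scaling to the library total it called 0 in each. Between genotypes it called 2 untreated and 2 with cytokines with no block, 0 and 0 with the 2-level block, 341 and 607 with the sex covariate, 2 and 2 scaled to the library total, and 3 and 2 with the hormone genes left out of that total. The sex covariate treats both libraries of a mouse as independent. Without 1 mouse in turn the counts were 0 for both responses, 0 to 7 untreated and 0 to 4 with cytokines. The difference of the responses gave 0 under every setting. Between limma fits the block of the mouse changed the call of Ppy in the KO response (adjusted p 0.0146 with it, 1.00 without) and of no other hormone gene.

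Ppy in the KO response was -0.84 and not called with no block, with the 2-level block and with the sex covariate, and -0.85 and not called under both scalings (-0.8498 and -0.8486). Without 1 mouse in turn it was -0.99 to -0.68, not called, where a genotype with 1 mouse left is assumed to vary like the other. Ghrl untreated between genotypes was called with the sex covariate.

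The values that changed sign were not called, and some of them were not small: Sst between genotypes was -0.45 untreated and -0.29 with cytokines in the deposited tables, and Pyy -0.40 with cytokines. Pyy in the WT response was -0.0513 with no block, with either block and with the sex covariate, -0.0257 scaled to the total and -0.0376 without the hormone genes in it. Gcg between genotypes with cytokines was -0.00175 with no block, with the 2-level block and with the sex covariate, -0.0342 scaled to the total and -0.0301 without the hormone genes. Under these scalings Iapp was 0.0175 and 0.00554 in the WT response, and -0.00811 under the first for the difference of the responses. Without 1 mouse in turn the ranges in the KO response were -0.0172 to 0.0442 for Ins1, -0.0166 to 0.0577 for Ins2 and -0.0639 to 0.163 for Sst. In the WT response they were -0.0872 to 0.0708 for Iapp and -0.286 to 0.183 for Pyy. Between genotypes with cytokines they were -0.0121 to 0.105 for Ins1, -0.353 to 0.0352 for Iapp, -0.542 to 0.538 for Gcg, -0.763 to 0.372 for Sst, -0.0104 to 0.405 for Ppy, -0.898 to 0.247 for Pyy and -0.711 to 0.257 for Ghrl. Untreated they were -0.918 to 0.585 for Gcg, -0.906 to 0.119 for Sst and -0.35 to 0.325 for Pyy. For the difference of the responses they were -0.0492 to 0.109 for Iapp and -0.0466 to 0.376 for Gcg. The cause of these changes was not tested.

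Per gene length the hormone genes took 19.5% of untreated KO libraries, 17.9% of KO with cytokines, 21.9% of untreated WT and 20.04% of WT with cytokines. Their shares of reads were 8.68%, 8.77%, 9.26% and 8.51%, in the same order. The length used here was that of all exons joined, not the median length of the coding transcripts.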
